A study of Drosophila melanogaster with 36 samples.

Results

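CG11598, CG31809, CG31810, CG31244, CG17177, CG17751 and CG33296 are 7 Drosophila genes that were selected on the difference between G85R and dSOD1 flies. This difference was larger under some drivers than under others. Its sign differed between drivers for CG31809 alone. Under every driver, G85R flies were higher for CG11598, CG31810, CG17751 and CG33296 and lower for CG31244 and CG17177. Each is measured by 1 probe set annotated to it alone, so 7 of the 18769 fly probe sets on the array are described here, and 1 further probe set is annotated to CG31809 and CG31810 together. Because the genes were chosen by their G85R minus dSOD1 values under the 3 drivers, those values and the levels behind them are given as a description without a test. Changes between 5d and 45d flies of the same cross were not themselves used to choose the genes and are tested. They rest on the same arrays, however. A G85R difference that changes with age is also a difference between the ageing of G85R and of dSOD1 flies. The ageing tests are therefore not independent of the choice.

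Mutant human SOD1 carrying the G85R change, which is linked to familial amyotrophic lateral sclerosis, was expressed in adult males through the Gal4-UAS system, in which a Gal4 driver line switches on a UAS transgene in the cells where the driver is active. D42-Gal4 was used for motoneurons (MN), M1B-Gal4 for glia, and both drivers together for MN+glia, and each was crossed to UAS-hSOD1 G85R (G85R) or, as the control, to UAS-dSOD1, the wild-type fly enzyme. Flies were taken at 5d and 45d, which gives 12 groups of 3 arrays, and each array carries RNA from a pool of 40 whole males. Every group therefore carries a driver and a SOD1 transgene, and a control with no transgene was not analysed here. The UAS-dSOD1 and UAS-hSOD1 G85R flies are different transgenic lines, and the 3 driver lines are different lines as well, so that a difference between crosses cannot be told apart from a difference in the genetic background that each parent line brings. In RNA of whole flies, fewer cells of a type and less RNA per cell cannot be told apart either.

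Most of these genes carry only a number because they are known from predicted protein sequence. CG11598 is a predicted acid lipase, a family of secreted or lysosomal enzymes that release fatty acids from stored or ingested lipids. CG31809 and CG31810 are predicted short-chain dehydrogenases, enzymes that reduce or oxidise steroids, retinoids and other small alcohols, and lie next to each other on chromosome arm 2L. CG17751 belongs to the organic ion transporters related to mammalian SLC22, and CG33296 to the sodium-coupled transporters related to mammalian SLC6, which in nervous tissue take transmitters back up from the synapse. No role is given here for CG31244 and CG17177. CG11598, CG31244 and CG17751 are on arm 3R, with CG17751 12 genes away from CG31244 in gene order, CG17177 is on 3L and CG33296 on 2L.

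Levels below are RMA signals on the log2 scale, on which a step of 1 is 2-fold, given in the order of replicates 1, 2 and 3. A level can be compared between arrays for 1 probe set but not between probe sets. RNA on replicate 2 of the MN+glia G85R flies at 5d was degraded, in that actin read 5.72 log2 units higher at the 3′ end of its transcript than at the 5′ end, where the remaining 35 arrays had 2.39 to 3.25. Gaps, orders of groups, group means and their spans, variance shares and correlations rest on all 36 arrays. So do ranges of a difference over several comparisons, and changes of a G85R difference with age. Other differences of single genes that use this array are given with and without it. The study's methods place a degraded array in the young glia G85R group, while the labels followed here put this one in MN+glia G85R flies. For MN+glia at 5d, the gene counts printed in the study are close to those found here without this array. These were 549 probe sets higher and 672 lower, against 1135 and 1468 with it. For glia at 5d the study's counts are close to the 507 and 550 called here with all arrays. The study's counts thus go with the labels, and its methods sentence does not. CG31809 was low in MN+glia G85R flies and CG17177 in glia G85R flies at both ages under these labels. Array medians ran from 6.41 to 6.55. The low arrays set apart below for CG11598, CG31809, CG31810, CG31244 and CG17177 lay at 6.42 or lower. Detection calls were not used, so how far background sets these low levels, and the folds against them, was not tested. As a check of the tissue label, 8 of 10 male organ markers and 7 of 8 measured nervous system markers lay above the median probe set, while 1 of 7 measured female markers did. The log2 of the summed linear signals, in which the brightest markers weigh most, ran over the arrays from 14.92 to 15.62 for the male organ list. It ran from 12.96 to 13.27 for the nervous system list and from 8.41 to 9.36 for the female list. VGlut, which marks motoneurons, had a median of only 4.38, and the testis regulator aly 3.75. With 3 arrays in each group, their number limits the precision of every value.

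CG11598, the predicted lipase, was low in the control flies of both crosses that carried M1B-Gal4 and high everywhere else. At 5d, flies with G85R in MN had log2 levels of 10.23, 10.32 and 10.23, and their dSOD1 controls 9.50, 9.37 and 9.46. With G85R in glia the 5d levels were 9.35, 9.18 and 9.26, against 6.16, 5.89 and 5.74 in dSOD1 controls. The MN+glia cross gave 9.28, 9.06 and 9.19 with G85R and 6.04, 5.71 and 5.73 with dSOD1. G85R arrays were above dSOD1 arrays under every driver, and the glia and MN+glia controls stood more than 3 log2 units under the MN controls. At 45d the levels were 9.60, 9.59 and 9.65 with G85R in MN and 9.08, 8.90 and 8.94 in the controls. In 45d flies of the glia cross they were 8.88, 8.86 and 8.82 with G85R and 5.66, 5.98 and 5.66 with dSOD1. For MN+glia at 45d they were 8.91, 8.96 and 8.82 with G85R and 5.77, 5.91 and 5.82 with dSOD1. Between 6.16 and 8.82 on the log2 scale no array was found, a gap of 2.66, and the 12 arrays under it were all those of the glia and MN+glia dSOD1 flies. The G85R minus dSOD1 difference at 5d was 0.82 in the MN cross, 3.34 in the glia cross and 3.35 in the combined cross, and 0.64, 3.08 and 3.07 at 45d (log2, SE 0.092). In linear terms the glial difference at 5d was 10.1-fold and the MN difference 1.76-fold. Without the degraded array the MN+glia difference at 5d was 3.41. In the order of the 12 group means the 4 low control groups overlapped their neighbours, and 7 of 11 adjacent pairs in all overlapped. MN G85R flies at 5d came highest, clear of the group beneath them.

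CG31244 had nearly the reverse layout, with its low arrays in the G85R flies of the 2 crosses that carried M1B-Gal4. At 5d the MN cross gave log2 levels of 8.11, 7.76 and 8.14 with G85R and 9.08, 9.14 and 8.99 with dSOD1. Flies of the glia cross had 5.35, 5.25 and 5.48 with G85R and 8.29, 8.33 and 8.41 with dSOD1. In MN+glia the levels were 5.14, 5.11 and 5.18 with G85R and 8.33, 8.30 and 8.13 with dSOD1. Here the control means of the 3 crosses spanned 0.82 log2 units, and the G85R arrays of 2 crosses lay far under them. By 45d the MN levels were 7.60, 7.42 and 7.53 with G85R and 8.23, 8.24 and 8.36 with dSOD1. In glia at 45d they were 5.36, 5.23 and 4.90 with G85R and 7.59, 7.66 and 7.68 with dSOD1. The MN+glia cross at 45d gave 4.90, 5.14 and 4.53 with G85R and 7.37, 7.61 and 7.53 with dSOD1. No array lay between 5.48 and 7.37, a gap of 1.90, with the 12 glia and MN+glia G85R arrays under it. The G85R minus dSOD1 difference at 5d was -1.07 in the MN cross, -2.98 in the glia cross and -3.11 in the combined cross, and -0.76, -2.48 and -2.65 at 45d (log2, SE 0.11). The MN+glia value at 5d was -3.09 without the degraded array and corresponds to 8.64-fold with all arrays. Of 11 adjacent pairs in the order of group means 8 overlapped, including all pairs among the 4 low groups, and MN dSOD1 flies at 5d came highest with no overlap.

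CG31810, 1 of the 2 adjacent dehydrogenase genes, was low only in control flies of the glia cross. At 5d its log2 levels with expression in glia were 8.11, 8.26 and 8.02 for G85R and 5.27, 5.43 and 5.55 for dSOD1. With expression in MN they were 8.96, 9.12 and 8.99 for G85R and 8.77, 8.68 and 8.56 for dSOD1. The MN+glia flies had 8.61, 8.64 and 8.42 with G85R and 8.15, 8.24 and 8.29 with dSOD1. The MN+glia controls, which also carry M1B-Gal4, did not share the low level of the glia controls. At 45d the glia arrays read 8.57, 8.44 and 8.51 with G85R and 6.34, 5.80 and 6.42 with dSOD1. The MN arrays read 9.84, 9.96 and 9.66 with G85R and 9.43, 9.39 and 9.38 with dSOD1. For MN+glia at 45d the log2 levels were 9.11, 9.09 and 8.90 with G85R and 8.73, 8.69 and 8.66 with dSOD1. The 6 glia control arrays lay at 6.42 or lower and the other 30 at 8.02 or higher, a gap of 1.60. The difference in glia was 2.71 at 5d and 2.32 at 45d, or 6.53-fold and 4.99-fold, while it was 0.35 and 0.42 in MN and 0.33 and 0.34 in MN+glia (log2, SE 0.11). Without the degraded array the MN+glia difference at 5d was 0.29. In the order of the group means 5 of 11 adjacent pairs overlapped.

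CG31809, its neighbour, was low in a different cross and for the other transgene. In MN+glia flies at 5d the log2 levels were 4.46, 4.76 and 4.77 with G85R and 7.04, 7.29 and 7.41 with dSOD1. At the same age the glia cross gave 7.70, 7.78 and 7.67 with G85R and 7.02, 6.95 and 7.04 with dSOD1. The MN cross gave 7.86, 7.85 and 7.78 with G85R and 7.61, 7.73 and 7.50 with dSOD1. At 5d, then, G85R arrays were above control arrays under each single driver and below them under the combined drivers. In MN+glia at 45d the levels were 5.26, 5.25 and 4.94 with G85R and 8.09, 8.12 and 8.29 with dSOD1. In glia at 45d they were 8.28, 8.23 and 8.20 with G85R and 8.17, 8.06 and 8.30 with dSOD1, and these arrays overlapped. In MN at 45d they were 8.10, 8.21 and 8.12 with G85R and 8.30, 8.50 and 8.27 with dSOD1. The 6 MN+glia G85R arrays lay at 5.26 or lower and the other 30 at 6.95 or higher, a gap of 1.70. The G85R minus dSOD1 difference was -2.58 at 5d and -3.02 at 45d in MN+glia, -2.64 at 5d without the degraded array, 0.71 and 0.06 in glia, and 0.22 and -0.21 in MN (log2, SE 0.093). The fall in MN+glia at 45d was 8.09-fold. Among the 10 groups above the gap, the 5 with the highest means were all 5 of the 45d groups and overlapped in a chain, while most 5d groups were clear of their neighbours.

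**Figure D1:**
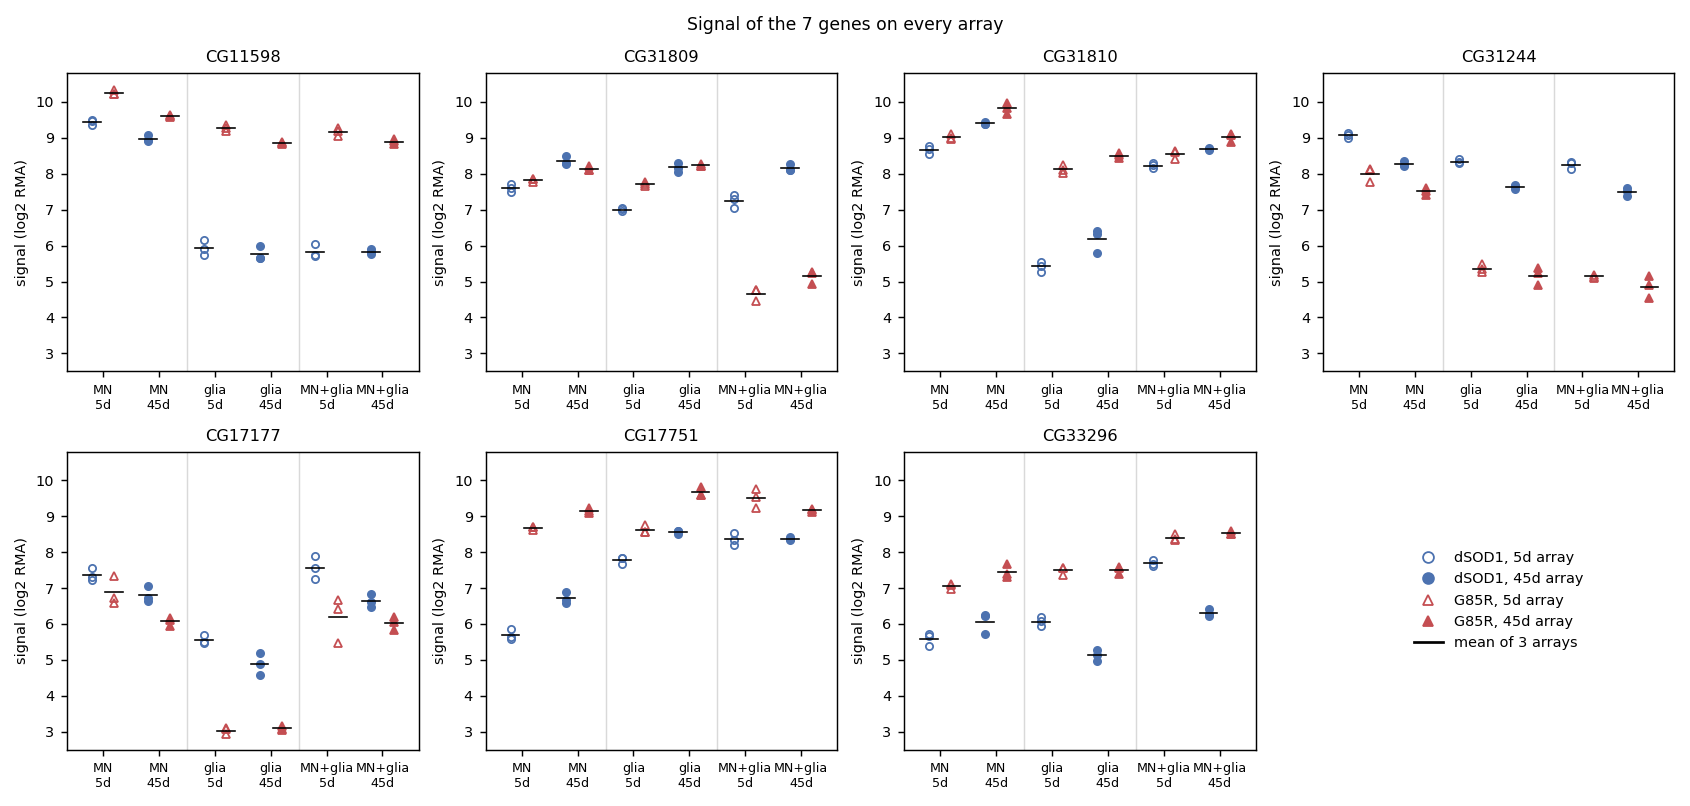
Signal (log2 RMA, vertical axis) of each gene on all 36 arrays, by driver and age (horizontal axis), with circles for dSOD1, triangles for G85R, open symbols for 5d, filled symbols for 45d and a line at the mean of 3 arrays. The low arrays belong to glia and MN+glia dSOD1 flies for CG11598, to glia and MN+glia G85R flies for CG31244, to glia dSOD1 flies for CG31810, to MN+glia G85R flies for CG31809 and to glia G85R flies for CG17177.

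The probe set annotated to both dehydrogenase genes spanned a narrower range over the arrays than either single-gene probe set, 2.48 log2 units against 4.04 for CG31809 and 4.69 for CG31810. At 5d it read 7.74, 7.83 and 7.69 in glia G85R flies and 6.35, 6.34 and 6.44 in their controls on the log2 scale. In MN+glia flies at 5d it read 7.38, 7.10 and 7.09 with G85R and 7.30, 7.36 and 7.38 with dSOD1, which overlap. Its G85R minus dSOD1 difference was 1.38 in glia, -0.15 in MN+glia and 0.23 in MN at 5d, and 0.86, -0.25 and 0.24 at 45d (log2, SE 0.062). The MN+glia value at 5d was -0.11 without the degraded array. Over the 36 arrays its level had a Pearson r of 0.85 with the CG31810 probe set and 0.47 with the CG31809 probe set, while the single-gene probe sets had an r of 0.01 with each other. With the log2 of the summed linear signals of both single-gene probe sets its r was 0.98. These points share groups and ages, and the values are a description. How far transcripts of the adjacent gene bind the probes of each single-gene probe set was not tested.

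**Figure D2:**
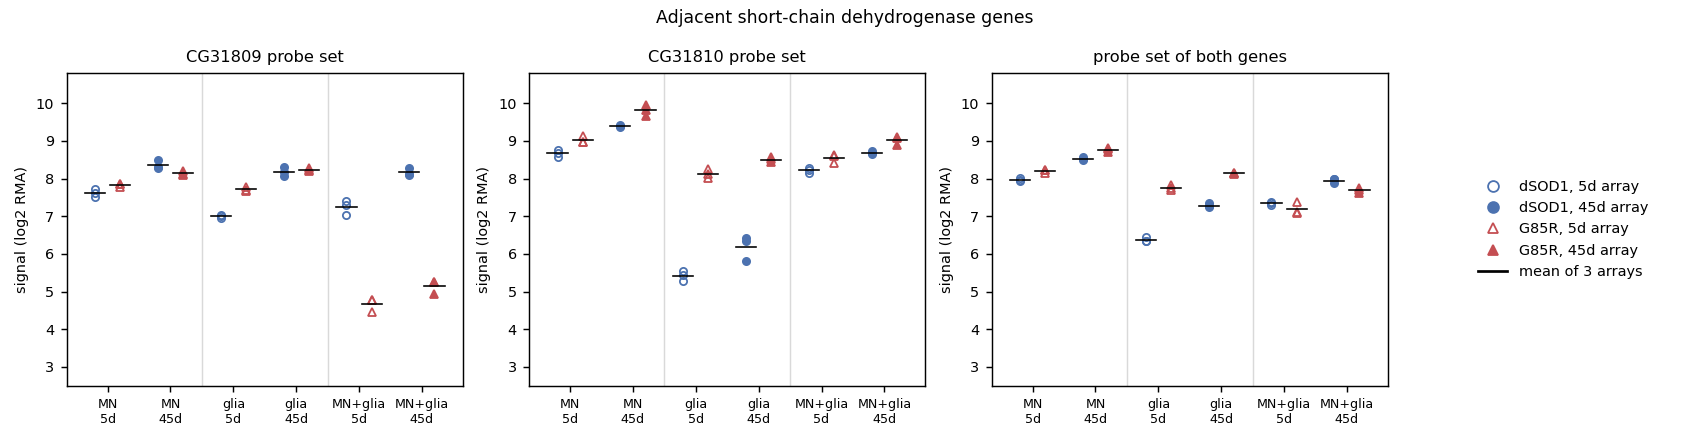
Signal (log2 RMA) on all 36 arrays of the probe sets for CG31809, for CG31810 and for both genes, by driver and age, with symbols as in the plot of all genes. The shared probe set spans 6.34 to 8.82, against 4.46 to 8.50 for CG31809 and 5.27 to 9.96 for CG31810.

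CG17177 was lowest in glia G85R flies and was the least even of the 7 genes between replicate arrays, with a pooled SD of 0.28 against 0.12 to 0.15 for the others. At 5d its log2 levels in the glia cross were 3.09, 3.07 and 2.93 with G85R and 5.51, 5.69 and 5.48 with dSOD1. In MN+glia they were 6.43, 5.46 and 6.67 with G85R and 7.25, 7.55 and 7.90 with dSOD1. In MN they were 7.33, 6.73 and 6.58 with G85R and 7.32, 7.55 and 7.21 with dSOD1. The MN groups overlapped at 5d, and the lowest MN+glia G85R array was the degraded one. At 45d the glia cross gave 3.07, 3.17 and 3.05 with G85R and 4.90, 4.58 and 5.20 with dSOD1. The MN+glia cross gave 6.18, 6.05 and 5.82 with G85R and 6.62, 6.47 and 6.84 with dSOD1 at that age. The MN cross gave 6.17, 6.12 and 5.96 with G85R and 6.63, 7.04 and 6.72 with dSOD1. Glia flies were below the flies of both other crosses for each transgene, and the 6 glia G85R arrays were separated from all others by a gap of 1.42. The G85R minus dSOD1 difference was -2.53 in glia, -1.38 in MN+glia and -0.48 in MN at 5d, and -1.80, -0.63 and -0.71 at 45d (log2, SE 0.21). Without the degraded array the MN+glia difference at 5d was -1.02. No detection calls were used here, so whether a level near 3 stands for transcript or for background was not tested. The 8 groups outside the glia cross formed a chain in which every adjacent pair overlapped.

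CG17751, the organic ion transporter gene, differed from the genes above in that MN controls were its low group. At 5d the MN cross had log2 levels of 8.69, 8.70 and 8.61 with G85R and 5.64, 5.87 and 5.59 with dSOD1. The glia cross had 8.56, 8.75 and 8.57 with G85R and 7.84, 7.82 and 7.67 with dSOD1. In the combined cross at 5d the levels were 9.22, 9.75 and 9.52 with G85R and 8.34, 8.19 and 8.53 with dSOD1. G85R arrays exceeded dSOD1 arrays in all 3 crosses, and the MN controls were about 2 log2 units or more under the other controls. At 45d the MN cross had 9.15, 9.22 and 9.08 with G85R and 6.59, 6.65 and 6.89 with dSOD1. The glia cross had 9.60, 9.81 and 9.60 with G85R and 8.52, 8.59 and 8.60 with dSOD1. The combined cross had 9.12, 9.18 and 9.19 with G85R and 8.41, 8.34 and 8.38 with dSOD1. The gap above the 6 MN control arrays was 0.77, and a second gap of 0.72 was nearly as wide. The G85R minus dSOD1 difference at 5d was 2.97 in the MN cross, 0.85 in the glia cross and 1.15 in the combined cross, and 2.44, 1.10 and 0.79 at 45d (log2, SE 0.10). For MN these are 7.82-fold and 5.43-fold, and the MN+glia value at 5d was 1.02 without the degraded array. All 6 G85R groups had higher means than the 6 dSOD1 groups, although 45d glia controls overlapped 5d glia G85R flies.

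CG33296, the SLC6-type transporter gene, was higher with G85R under every driver, as were CG11598, CG31810 and CG17751, and had no single low cross. At 5d its log2 levels in MN flies were 7.09, 7.11 and 6.98 with G85R and 5.66, 5.38 and 5.72 with dSOD1. In glia flies they were 7.56, 7.37 and 7.57 with G85R and 6.08, 6.18 and 5.94 with dSOD1. In MN+glia flies they were 8.34, 8.49 and 8.36 with G85R and 7.68, 7.60 and 7.78 with dSOD1. The MN+glia controls at 5d were thus higher than the G85R flies of both other crosses. At 45d the MN levels were 7.40, 7.67 and 7.30 with G85R and 5.73, 6.21 and 6.25 with dSOD1. The glia levels at 45d were 7.58, 7.38 and 7.57 with G85R and 5.15, 4.96 and 5.27 with dSOD1. The MN+glia levels at 45d were 8.51, 8.59 and 8.51 with G85R and 6.42, 6.22 and 6.29 with dSOD1. The largest gap was 0.56, under the 6 MN+glia G85R arrays, and 3 of 11 adjacent pairs of groups overlapped. The G85R minus dSOD1 difference at 5d was 1.48 in the MN cross, 1.43 in the glia cross and 0.71 in the combined cross, and 1.39, 2.38 and 2.23 at 45d (log2, SE 0.11). The MN+glia value at 5d was 0.66 without the degraded array. It was the member whose difference changed most with age, by 1.52 in MN+glia and 0.95 in glia on the log2 scale.

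**Figure D3:**
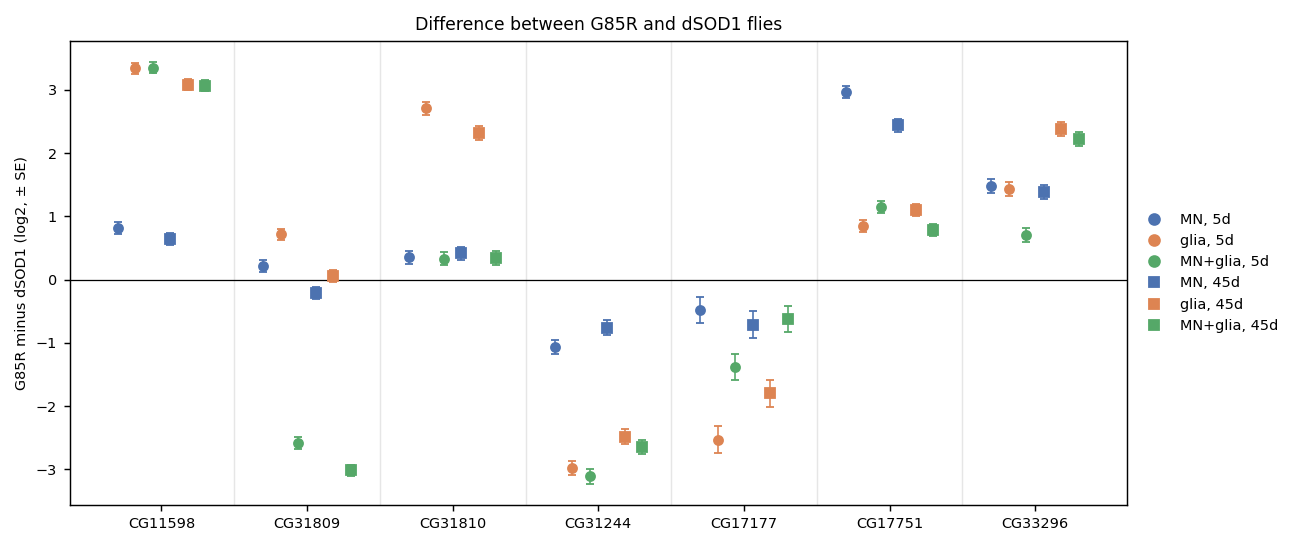
G85R minus dSOD1 difference (log2, vertical axis, bars are ± SE from the limma fit) for each gene, with colours for the drivers, circles for 5d and squares for 45d. The differences of at least 2 log2 units at both ages are those of CG11598 and CG31244 in glia and MN+glia, of CG31810 in glia, of CG31809 in MN+glia and of CG17751 in MN, while CG17177 in glia reached that size only at 5d and CG33296 in glia and MN+glia only at 45d.

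Over the 7 genes and 6 comparisons of G85R with dSOD1, the arrays of the 2 groups did not overlap in 40 of 42 cases, and the difference was at least 2-fold in 25. No gene was at least 2-fold different in all 6. These counts follow from how the genes were chosen, and nothing is read from them. The same counts over all probe sets are not given, and the limma calls that follow are a different measure. Over all fly probe sets, limma with adjusted p at most 0.05 called 4.35% higher and 3.64% lower in G85R flies for MN at 5d, 2.7% and 2.93% for glia at 5d, and 6.05% and 7.82% for MN+glia at 5d. The last pair was 2.93% and 3.58% without the degraded array. At 45d the shares were 5.18% and 4.84% for MN, 4.89% and 5.09% for glia, and 3.02% and 4.01% for MN+glia. A gap of at least 1 log2 unit in the order of the 36 arrays was found for 134 of 18769 probe sets and one of at least 1.4 for 60. Of the 7 genes 5 had one of at least 1.4, the smallest of them 1.42 for CG17177. Choosing genes on large differences between groups also favours such gaps, so nothing is read from this count either.

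For 4 of the 7 genes the 3 driver lines differed more among controls than among G85R flies at both ages. The means of the 3 crosses at 5d spanned 3.62 log2 units with dSOD1 and 1.08 with G85R for CG11598. For CG31810 they spanned 3.25 and 0.90, for CG17751 2.65 and 0.87, and for CG33296 2.10 and 1.34. The reverse held for the other 3 genes. CG31809 spanned 0.61 with dSOD1 and 3.17 with G85R, CG31244 0.82 and 2.86, and CG17177 2.01 and 3.85. At 45d the spans were 3.21 and 0.76 for CG11598 and 0.19 and 3.09 for CG31809, and those of CG33296 were close to each other, at 1.18 and 1.08. Line and transgene together, with age left aside, held 86.8% to 98.3% of the variance of each gene over the 36 arrays, and the 12 groups held 97.5% to 99.7%.

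Age moved these genes as well, and it is tested because the genes were not selected on it directly. The tests use the arrays that entered the choice, so they are not independent of it. In the limma fit with p values adjusted over all fly probe sets, 33 of the 42 gene and cross pairs passed the threshold of 0.05 between 5d and 45d. Per cross, 7 of 7 genes passed in MN dSOD1 flies, where 45.3% of all probe sets did, 6 in glia dSOD1 (40.5%) and 5 in MN+glia dSOD1 (38.3%). Among G85R flies 7 passed with the MN driver (39.2%), 4 with the glia driver (34.2%) and 4 with both (31.7%). The last count was again 4 when the degraded array was left out, with 31% of all probe sets. The shares of all probe sets are large, so that a change with age was common among genes in general, and these comparisons share no arrays with each other.

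CG31809 and CG31810 rose with age in all 6 crosses. For CG31809 the largest change was 1.18 in glia dSOD1 flies (log2, SE 0.093, limma adjusted p = 1.4e-11) and the smallest 0.31 in MN G85R flies (SE 0.093, limma adjusted p = 0.0076). In the MN+glia G85R flies, where its level was lowest, it rose by 0.49 (SE 0.093, limma adjusted p = 1.2e-04) and by 0.54 without the degraded array. CG31810 rose by between 0.38 in glia G85R flies (SE 0.11, limma adjusted p = 0.0058) and 0.80 in MN G85R flies (SE 0.11, limma adjusted p = 3.5e-07). In MN+glia G85R flies its rise was 0.48 (limma adjusted p = 7.4e-04), or 0.52 when the degraded array was left out (limma adjusted p = 9.8e-04). The shared probe set rose in every cross too, by 0.39 to 0.91. So both dehydrogenase genes increased whatever their level at 5d had been. CG17751 rose in 4 crosses, most in glia G85R flies by 1.04 (SE 0.10, limma adjusted p = 1.7e-09), followed by MN dSOD1 flies at 1.01 (SE 0.10, limma adjusted p = 8.1e-10). Its change in MN+glia flies was 0.02 with dSOD1 (limma adjusted p = 0.90) and -0.34 with G85R (limma adjusted p = 0.0093), and the latter was -0.21 without the degraded array (limma adjusted p = 0.11).

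CG11598, CG31244 and CG17177 fell with age where they changed. CG11598 fell in 4 crosses, by 0.65 in MN G85R flies (log2, SE 0.092, limma adjusted p = 9.1e-07), 0.47 in MN dSOD1 flies, 0.42 in glia G85R flies and 0.28 in MN+glia G85R flies. The last call (limma adjusted p = 0.018) held without the degraded array, at -0.34 (limma adjusted p = 0.0091), but was lost without replicate 1 of MN+glia G85R at 5d, at -0.23 (limma adjusted p = 0.092), and without replicate 3 at 45d, at -0.24 (limma adjusted p = 0.072). In the low glia controls its change was -0.16 (limma adjusted p = 0.17), which became -0.26 and passed (limma adjusted p = 0.034) without replicate 3 at 5d and -0.27 (limma adjusted p = 0.024) without replicate 2 at 45d. In the low MN+glia controls it was 0.00 (limma adjusted p = 0.99). CG31244 fell in 4 crosses, by 0.79, 0.70 and 0.75 in dSOD1 flies of the MN, glia and combined crosses and by 0.48 in MN G85R flies (limma adjusted p = 9.0e-04). In its low groups the change was -0.20 in glia G85R flies (limma adjusted p = 0.20) and -0.29 in MN+glia G85R flies (limma adjusted p = 0.056), and -0.30 (limma adjusted p = 0.078) without the degraded array. The MN+glia change passed at -0.43 (limma adjusted p = 0.0056) without replicate 2 at 45d, and with all arrays under median centring (-0.32, limma adjusted p = 0.028), the filter on dim probe sets (limma adjusted p = 0.041) and the eBayes trend (limma adjusted p = 0.048). The difference between crosses in ageing was not tested.

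CG17177 fell with age in 4 crosses too, by 0.56 in MN dSOD1 flies (log2, SE 0.21, limma adjusted p = 0.028), 0.67 in glia dSOD1, 0.92 in MN+glia dSOD1 and 0.80 in MN G85R flies. The MN dSOD1 call was lost without replicate 1 at 5d, at -0.58 (limma adjusted p = 0.0503), without replicate 2 at 5d, at -0.47 (limma adjusted p = 0.11), without replicate 1 at 45d, at -0.48 (limma adjusted p = 0.099), and without replicate 3 at 45d, at -0.52 (limma adjusted p = 0.081). The glia dSOD1 call (limma adjusted p = 0.011) was lost without replicate 2 at 45d, at -0.51 (limma adjusted p = 0.082). In glia G85R flies, near the bottom of its range, the change was 0.07 (SE 0.21, limma adjusted p = 0.85). In MN+glia G85R flies it was -0.17 (limma adjusted p = 0.60) with all arrays and -0.53 (limma adjusted p = 0.027) without the degraded array.

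CG33296 rose with age under 1 driver and fell under the others in control flies. It rose in MN flies, by 0.48 with dSOD1 (log2, SE 0.11, limma adjusted p = 6.9e-04) and by 0.39 with G85R (SE 0.11, limma adjusted p = 0.0050). The MN G85R call was lost without replicate 2 at 45d, at 0.29 (limma adjusted p = 0.064). It fell in controls that carried M1B-Gal4, by 0.94 in glia (SE 0.11, limma adjusted p = 3.4e-08) and by 1.38 in MN+glia (SE 0.11, limma adjusted p = 2.6e-11). The G85R flies of those 2 crosses changed by 0.01 (limma adjusted p = 0.96) and 0.14 (limma adjusted p = 0.38). The wider G85R difference in glia and MN+glia flies at 45d therefore coincided with a lower level in the controls and not with a called change in the G85R flies.

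**Figure D4:**
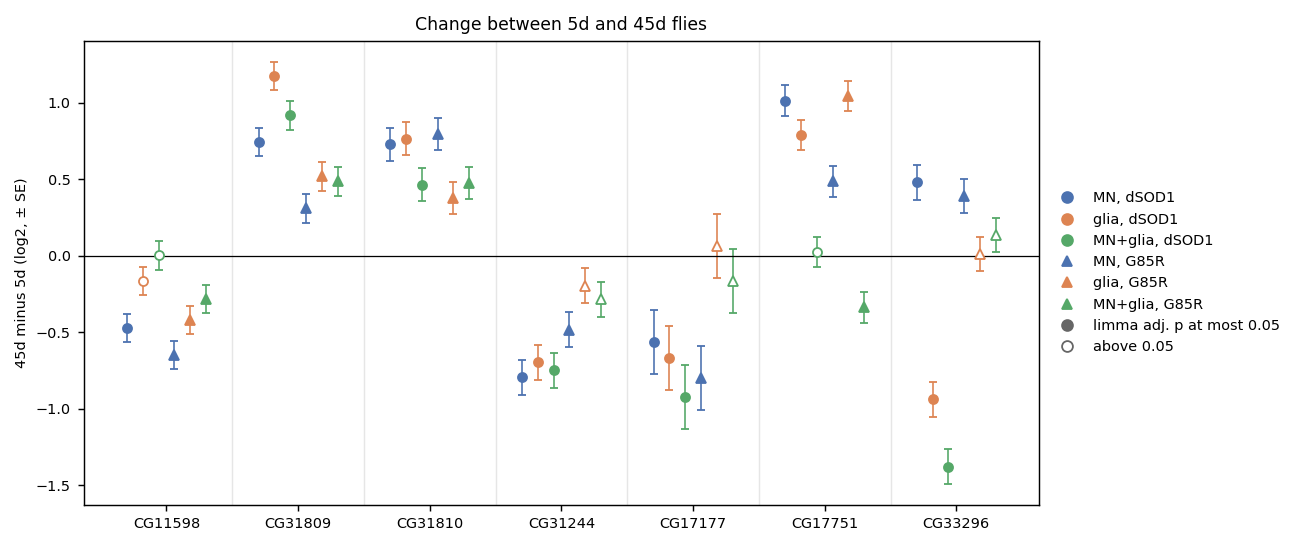
Change between 5d and 45d flies (45d minus 5d, log2, vertical axis, bars are ± SE from the limma fit) for each gene, with colours for the drivers, circles for dSOD1 and triangles for G85R, filled where the limma adjusted p was at most 0.05. CG31809 and CG31810 lie above 0 in all 6 crosses, and CG33296 lies at -0.94 and -1.38 in glia and MN+glia dSOD1 flies and at 0.48 and 0.39 in MN flies.

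The patterns over the arrays were matched to all probe sets with 1 gene symbol, and the 3 with the highest Pearson r are named for each gene. These r values are over the same 36 arrays, which share crosses and ages, and are a description. For CG11598 the most alike was alpha-Est2, an esterase gene, with an r of 0.99, followed by CG11437 at 0.93 and the UDP-glucuronosyltransferase gene Ugt35A1 at 0.92. At 5d alpha-Est2 had mean log2 levels of 4.19 ± 0.060 and 4.50 ± 0.11 (SD, n = 3 arrays) in the glia and MN+glia controls and of 7.40 ± 0.053 in the MN controls, so it was low in the same 2 control crosses. For CG31244 they were CG18233 (0.95), the thiol reductase gene GILT3 (0.92) and the phosphodiesterase gene Pde1c (0.91). For CG17177 they were CG18682 (0.96), the circadian transcription factor Clk (0.96) and dysc (0.94), which in flies acts in circadian output, 83 genes away on the same arm. CG17751 was most like Rdh1, a retinol dehydrogenase gene (0.96), HipHop, which protects telomeres (0.94), and the cytochrome P450 gene Cyp49a1 (0.90). CG33296 was most like Lmpt (0.88), Prx6c, a peroxiredoxin gene (0.87), and spab (0.86).

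The matches of the dehydrogenase genes were looser for CG31809 than for CG31810. CG31809 was most like NimC1, a phagocytosis receptor of hemocytes (0.83), Idh, an isocitrate dehydrogenase gene (0.76), and Rab3GAP1 (0.76). NimC1 was likewise lowest in MN+glia G85R flies, at 5.17 ± 0.12 at 5d and 4.91 ± 0.16 at 45d against 6.82 ± 0.038 and 6.92 ± 0.13 in their controls (log2 mean ± SD, n = 3 arrays). CG31810 was most like CG2772, a predicted lipase (0.88), the protease gene Jon65Ai (0.88) and sima, the fly hypoxia-inducible factor (0.87). Among the 7 genes themselves the highest r was 0.67, for CG17751 with CG33296 and for CG11598 with CG31810, and the lowest -0.73, for CG31244 with CG17751 and with CG33296. Of the 21 matched genes 8 lay on the arm of the gene they matched, 12 on another arm, and 1 was not placed.

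Relatives of the members by protein family were not selected on these values, although their lists were written with earlier results known, and were tested for G85R against dSOD1. Of 19 other acid lipase genes 2 rose and 3 fell in the MN cross at 5d, 2 and 1 in the glia cross, and 2 and 3 in the combined cross, or 2 and 2 when the degraded array was left out. At 45d 1 rose and 4 fell in MN, 3 and 4 in glia, and 1 and 1 in MN+glia. CG2772 was the one that changed at least 2-fold in every comparison, from 4.54 ± 0.25 in glia controls to 6.50 ± 0.11 in glia G85R flies at 45d (log2 mean ± SD, n = 3 arrays), a rise of 1.96 (SE 0.13, limma adjusted p = 7.9e-13), with 1.14 to 1.84 in the other 5 comparisons. CG31091 rose by 0.78 in glia at 5d (SE 0.16, limma adjusted p = 0.0024). At 45d Lip3 fell by 1.75 in glia (SE 0.22, limma adjusted p = 8.5e-07), and CG11608 fell by 0.72 in MN (SE 0.076, limma adjusted p = 3.6e-08). CG11600, the gene beside CG11598 and of the same family, had differences between -0.01 and 0.17 in the 6 comparisons, with the lowest limma adjusted p at 0.35.

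Other short-chain dehydrogenase genes showed no 2-fold change. Of 23 tested, 2 rose and 2 fell in the MN cross at 5d, 0 and 0 in the glia cross, and 2 and 1 in the combined cross, or 0 and 0 when the degraded array was left out. At 45d 4 rose and 5 fell in MN, 3 and 6 in glia, and 4 and 3 in MN+glia. In MN+glia at 45d CG40485 rose by 0.67 (SE 0.12, limma adjusted p = 2.6e-04), while CG9150 fell by 0.74 (SE 0.10, limma adjusted p = 4.7e-06) and CG3603 fell by 0.55 (SE 0.10, limma adjusted p = 4.4e-04). CG40486 rose by 0.50 in glia at that age (SE 0.059, limma adjusted p = 2.3e-07). CG13284, which adjoins CG31810 and belongs to the family, had differences between -0.12 and 0.05. CG6012, which adjoins CG31809 on the other side and is of the same family, was higher in G85R flies by 0.46 in MN at 5d (SE 0.12, limma adjusted p = 0.012) and by 0.37 in glia at 45d (SE 0.12, limma adjusted p = 0.044). With both drivers at 5d its difference was 0.36 (limma adjusted p = 0.037), or 0.31 when the degraded array was left out (limma adjusted p = 0.18).

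Among 21 other SLC22-type genes 0 rose and 0 fell in the MN cross at 5d, 0 and 3 in the glia cross, and 1 and 2 in the combined cross, or 0 and 1 when the degraded array was left out. At 45d the counts were 0 and 3 in MN, 2 and 3 in glia, and 0 and 3 in MN+glia. The 3 falls are 14.3% of the family, beside 4.84%, 5.09% and 4.01% of all probe sets in MN, glia and MN+glia. The 2 rises in glia are 9.52%, beside 4.89%. No direction is read from counts this small. CG17751 itself was higher in G85R flies. In glia at 45d CG16727 fell by 1.14 (SE 0.13, limma adjusted p = 8.7e-08). CG7342, the gene on the other side of CG17751, fell by 0.63 in MN+glia at 45d (SE 0.086, limma adjusted p = 4.5e-06). CG6356 and CG8654 rose by 0.35 and 0.31 in glia at 45d (limma adjusted p = 0.0053 and 8.3e-04). Among 19 SLC6-type genes 3 rose and 1 fell in the MN cross at 5d, 1 and 3 in the glia cross, and 3 and 3 in the combined cross, or 1 and 1 when the degraded array was left out. At 45d 3 rose and 2 fell in MN, 1 and 4 in glia, and 1 and 2 in MN+glia. CG13793, next to CG33296 on 2L, rose in all 6 comparisons by 0.47 to 0.60, with 0.60 in MN at 5d (SE 0.086, limma adjusted p = 9.6e-06). DAT, the dopamine transporter, rose by 0.45 in MN at 5d (SE 0.14, limma adjusted p = 0.045), and CG13794 fell by 0.44 in glia at 45d (SE 0.080, limma adjusted p = 2.2e-04). Gat, the GABA transporter, fell by 0.85 in MN+glia at 5d (SE 0.26, limma adjusted p = 0.027) with all arrays, but its difference was -0.24 without the degraded array (limma adjusted p = 0.40).

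Read over all 4 families, 8.54% of 82 genes rose and 7.32% fell in MN at 5d, and 11% rose and 20.7% fell in glia at 45d. The corresponding shares of all probe sets are 4.35% and 3.64%, and 4.89% and 5.09%. In glia at 5d 3.66% rose and 8.54% fell, beside 2.7% and 2.93%. In MN at 45d 9.76% rose and 17.1% fell, beside 5.18% and 4.84%. In MN+glia at 45d the shares were 7.32% and 11%, beside 3.02% and 4.01%. In MN+glia at 5d 9.76% rose and 11% fell, or 3.66% and 4.88% without the degraded array, against 2.93% and 3.58% of all probe sets on the same arrays. The median difference of each family lay between -0.08 and 0.08 in every comparison, beside medians of -0.01 to 0.02 over all probe sets. A family list holds 1 probe set per gene, chosen for its high signal, whereas the background holds all probe sets, and how much that moves the shares was not tested.

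The chromosome around each member was read through the 5 genes on either side in gene order, 60 genes of which 45 had a probe set. In MN 3 of these rose and 5 fell at 5d, or 6.67% and 11.1%, beside 4.35% and 3.64% of all probe sets. At 45d 5 rose and 8 fell, or 11.1% and 17.8%, beside 5.18% and 4.84%. In glia 3 rose and 7 fell at 5d, or 6.67% and 15.6%, beside 2.7% and 2.93%. At 45d 8 rose and 8 fell, or 17.8% each, beside 4.89% and 5.09%. In MN+glia 7 rose and 10 fell at 5d, or 15.6% and 22.2%, beside 6.05% and 7.82%. Without the degraded array 3 rose and 8 fell, or 6.67% and 17.8%, beside 2.93% and 3.58%. Neighbour counts of the other comparisons are given with all arrays only. At 45d 6 rose and 5 fell, or 13.3% and 11.1%, beside 3.02% and 4.01%. Each neighbour is read from its probe set with the highest mean, as in the families, and how much that moves the shares was not tested. Only Dtg and CG16727 among them changed at least 2-fold. Dtg, the fifth gene from CG11598, went in MN+glia at 45d from 8.10 ± 0.10 with dSOD1 to 6.54 ± 0.093 with G85R (log2 mean ± SD, n = 3 arrays), a change of -1.56 (SE 0.11, limma adjusted p = 4.5e-12), and in glia at 45d by -1.29 (SE 0.11, limma adjusted p = 3.4e-10). At 5d its difference in glia was -0.02 (limma adjusted p = 0.95). CG16727, the second gene from CG17751, fell by 1.09 in MN at 45d (SE 0.13, limma adjusted p = 2.4e-07) and by 1.14 in glia. In those comparisons both went opposite to the member near them. Some genes, CG16727 among them, stand on a family list and a neighbour list.

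**Figure D5:**
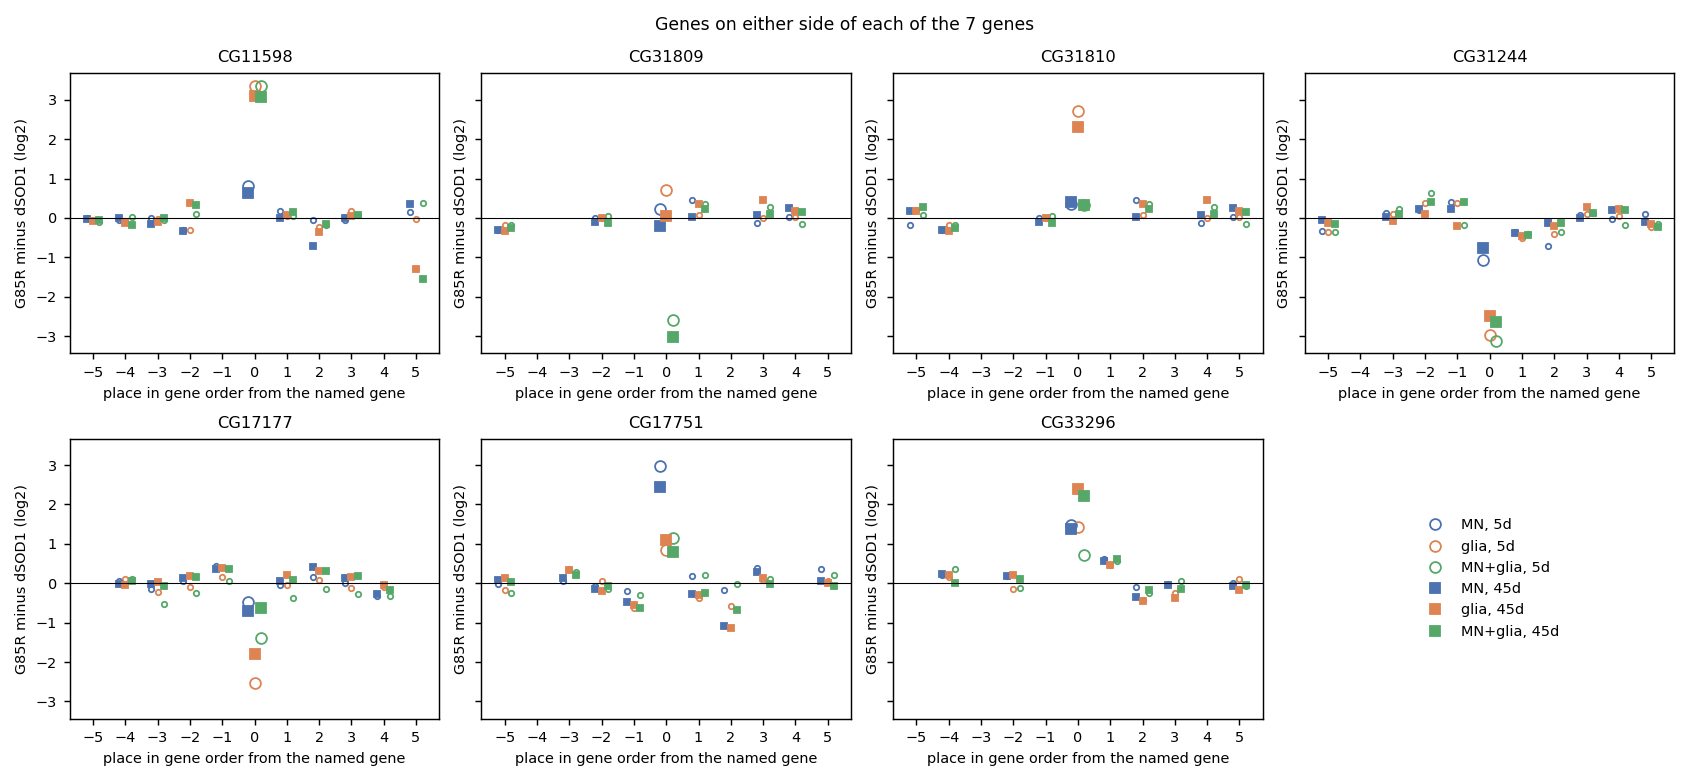
G85R minus dSOD1 difference (log2, vertical axis) of the measured genes within 5 places on either side of each of the 7 genes (horizontal axis, place in gene order), with the gene itself at 0 in larger symbols, colours for the drivers, open circles for 5d and filled squares for 45d. Neighbours stay within 1 log2 unit of 0 except Dtg beside CG11598, at -1.29 and -1.56, and CG16727 beside CG17751, at -1.09 and -1.14; a second member among the neighbours is not drawn.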

How the data were processed

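Each of 36 Affymetrix Drosophila Genome arrays carried RNA of 40 pooled whole males, and the titles put 3 arrays in each of 12 groups. Background correction, quantile normalization and the summary of probes per probe set were done by the authors with RMA, and the values they deposited are on the log2 scale. Whether all arrays were normalized together is not given in the sources used here. RMA pulls the arrays to a common distribution, so a shift shared by all genes could not be seen. No further normalization was applied, and every column of values was mapped to a sample. Probe sets were named through the platform annotation, updated by gene identifier: of 18769 fly probe sets 13647 carry 1 symbol, 402 several and 4720 none, and 183 controls were left out. Gene order came from RefSeq annotation, and the signal of the SOD1 transgenes was not analysed here.

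Group means of all 36 arrays were estimated together in limma 3.58.1 under R 4.3.3, which left 24 residual degrees of freedom beside 5.77 from the empirical Bayes prior. The Benjamini-Hochberg adjustment ran over the fly probe sets of 1 comparison at a time, and an adjusted p of at most 0.05 was called. The model was tested on simulated data. The 7 genes, the family lists and the marker lists were chosen with earlier results of these data known. Named besides the members are the 3 genes most alike in pattern, of each family up to 2 genes each way with the largest called difference, and neighbours called with at least a 2-fold change. CG11600, CG13284, CG6012 and NimC1's group means were named beside them after their values were seen. A family gene is represented by its probe set with the highest mean. Alternatives were quantile normalization, median centring, a filter on probe sets with a mean under 5, an eBayes trend with a robust prior, array weights, a fit on the groups compared alone, the replicate number as a block, all probe sets of a gene, and leaving out each array in turn.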

Additional observations from a re-analysis of the deposited data

Results flagged for a closer look

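CG31809 was marked because the G85R minus dSOD1 difference had opposite signs under different drivers, with no overlap between the arrays of the groups. At 5d it was 0.22 on the log2 scale in the MN cross, 0.71 in the glia cross and -2.58 in the combined cross. The sign in MN also turned with age, from 0.22 at 5d to -0.21 at 45d, where the arrays again did not overlap. These differences between drivers and ages were not tested, since the gene was selected on them.

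CG33296 was marked because its control and G85R flies moved in opposite directions with age in MN+glia, by -1.38 with dSOD1 and by 0.14 with G85R (log2), each with no overlap between 5d and 45d arrays. The second change did not pass the limma threshold, and the difference between the changes was not tested. It was 0.19 without the degraded array.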

How the results depend on the processing

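No called change with age and no count changed direction under any alternative, but 5 single-gene values near 0 did: 4 ageing changes that did not pass, CG11598 and CG17751 in MN+glia dSOD1, CG33296 in glia G85R and CG17177 in MN+glia G85R flies, and the CG31809 difference in glia at 45d, which was 0.06 and lay just below 0 without replicate 2 of the controls. The largest of these values was -0.17 with all arrays. With the fit on the groups compared alone, 2 member genes in place of 4 passed between 5d and 45d in MN+glia G85R flies, and the called short-chain dehydrogenase genes over the 6 comparisons of G85R with dSOD1 went from 32 to 20. With array weights the called SLC22-type genes went from 17 to 28. The cause of these shifts was not tested. Leaving out each array in turn gave 26 to 31 for the short-chain dehydrogenases, 14 to 21 for SLC22-type genes, 23 to 31 for acid lipases (27 with all arrays), 21 to 28 for SLC6-type genes (27) and 67 to 78 for neighbours (75). The count of members past the threshold with age ran from 3 to 5 in MN+glia G85R flies, from 6 to 7 in MN dSOD1, MN G85R and glia dSOD1 flies, and stayed at 4 in glia G85R and 5 in MN+glia dSOD1 flies. Of 546 values of member ageing under alternatives, 11 lost and 8 gained the call. Of 546 values of the members' G85R difference, 6 moved by more than the replicate spread: CG17177 in MN+glia at 5d, from -1.38 to -1.05 with array weights and -1.02 without the degraded array, and 4 others on leaving out 1 array, CG33296 in MN at 45d (1.39 to 1.22), CG31810 in glia at 45d (2.32 to 2.13), CG17751 in MN+glia at 5d (1.15 to 1.29) and CG31244 in MN+glia at 45d (-2.65 to -2.49). The replicate numbers share no stated batch, and deviations of same-numbered arrays had a median r of -0.01 (range -0.47 to 0.45). With the replicate number as a replicate block, 7 members passed in MN dSOD1 flies as without it, and no call of a member changed. Having 3 arrays per group limits what can be told apart.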
